A study of Drosophila melanogaster with 3 samples.

Results

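The Notch pathway carries signals between neighbouring cells, and 9 of its core genes were examined for binding of Pif1B in whole pupae of Drosophila melanogaster. They were N, which encodes the receptor, Dl and Ser (ligands), fng (a glycosyltransferase that modifies the receptor), neur (a ubiquitin ligase acting on the ligands), numb (an inhibitor of the receptor), mam (a coactivator), Su(H) (the DNA-binding transcription factor) and H (its corepressor adaptor). The genes were listed by name, not by any measured value, although earlier results of these data were known when they were chosen. They make up 9 of the 13945 protein-coding genes on the chromosome arms. Dl was found in the annotation under the symbol Delta and is not dl, which encodes Dorsal. A region was assigned to a gene when its summit lay inside the annotated gene or within 2 kb of it.

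When a ligand on one cell binds Notch on the next, the receptor is cut and its intracellular part enters the nucleus. There it joins Su(H) and Mastermind, the product of mam, at target genes, whereas without signal Su(H) is held with Hairless, the product of H, and represses them. In the developing fly the pathway singles out sensory organ precursors, sets the wing margin and separates the fates of sister cells.

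Binding was mapped by chromatin immunoprecipitation and sequencing (ChIP-seq) in a transgenic line that stably expresses Pif1B with GFP at its C-terminal end. All samples belonged to 1 group, Pif1B-eGFP pupae. The 3 replicates shared the transgene, the whole-organism material of pooled male and female pupae of unknown age, the sonication and the anti-GFP precipitation, although the antibody field of the labels reads Pif1B. The labels number them as biological replicates, each with its own biosample, and the promoter that drives the fusion is not given in the sources used here. With 1 group there was no comparison between conditions, and no test was run. In whole animals, binding in few cells and weak binding in many cells cannot be told apart.

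The data were lists of regions, each with a summit and a signal value. The authors' list thresholded on the irreproducible discovery rate (IDR), a measure of agreement between replicates, held 6410 peaks with signal values between 83.2 and 1933. The relaxed list of the pooled replicates held 29999 regions, of which the IDR peaks were those with the highest signal (21.4%). The relaxed lists of the replicates held 29999, 29999 and 30000 regions, so a signal was compared between replicates only through its rank, with 1 as the strongest. Chromosome X, which carries N, held 19.2%, 16.6% and 19.0% of the regions of replicates 1, 2 and 3.

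Of the 9 genes, 7 had at least 1 IDR summit, and together they held 37. The counts were 14 at mam, 5 each at N and fng, 4 each at Dl and Ser, 3 at neur and 2 at numb, while Su(H) and H had none. Over all protein-coding genes, 29.8% had an IDR summit under the same rule, and 54.7% had a pooled relaxed summit. Long genes offer more room, and these 7 genes all belonged to the longest 10% of protein-coding genes (14.6 kb or more), in which 64.2% of 1395 genes had an IDR summit. The windows of the 9 genes, 268 kb in all, held 0.138 IDR summits per kb, against 0.0541 per kb over the longest 10%. All 7 lay above the median of that class, 0.0414 per kb, and mam (0.191 per kb) and fng (0.181 per kb) above its 90th percentile of 0.171 per kb. The median over the 9 genes was 4 IDR summits, against 1 in the longest 10% and 0 over all genes. The genes were not matched for anything other than length, and whether their counts exceed those of other developmental genes was not tested.

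**Figure D1:**
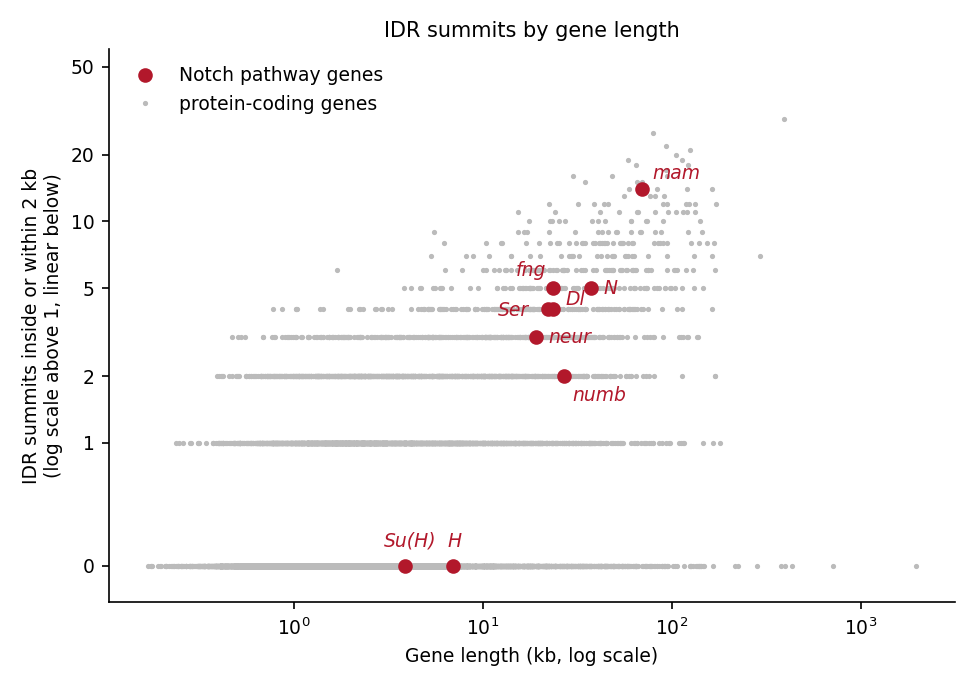
Number of IDR summits inside or within 2 kb of each gene (vertical axis, log scale above 1 and linear below) against gene length in kb (log scale). Each grey point is 1 protein-coding gene and each red point 1 of the 9 Notch pathway genes, with mam highest at 14 and Su(H) and H, the shortest of the 9, at 0.

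The IDR summits of these genes lay mostly in introns. There were 25 in introns (67.6%), 9 within 500 bp of a start of the gene (24.3%), 2 further upstream, 1 downstream and 0 in an exon away from a start. Among the 3500 pairings of an IDR summit with a gene of the longest 10%, 68.9% were intronic, 21.2% at a start, 5.11% upstream, 3.66% downstream and 1.17% exonic. A summit at a start was present at 5 of the 9 genes, Ser, fng, neur, numb and mam, against 15.6% of all protein-coding genes. That share covers genes of every length and is not given here for the longest 10%, to which all 5 belong. Ser, neur and numb also have 2 annotated starts each and mam has 3, so the shares are not like for like. The median signal value was 115 at starts, with a range of 90.6 to 391, and 135 in introns, with a range of 83.2 to 910. The nearest protein-coding start belonged to the gene itself for 29 of the 37 summits. The like share among the 3500 pairings is not given here.

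**Figure D2:**
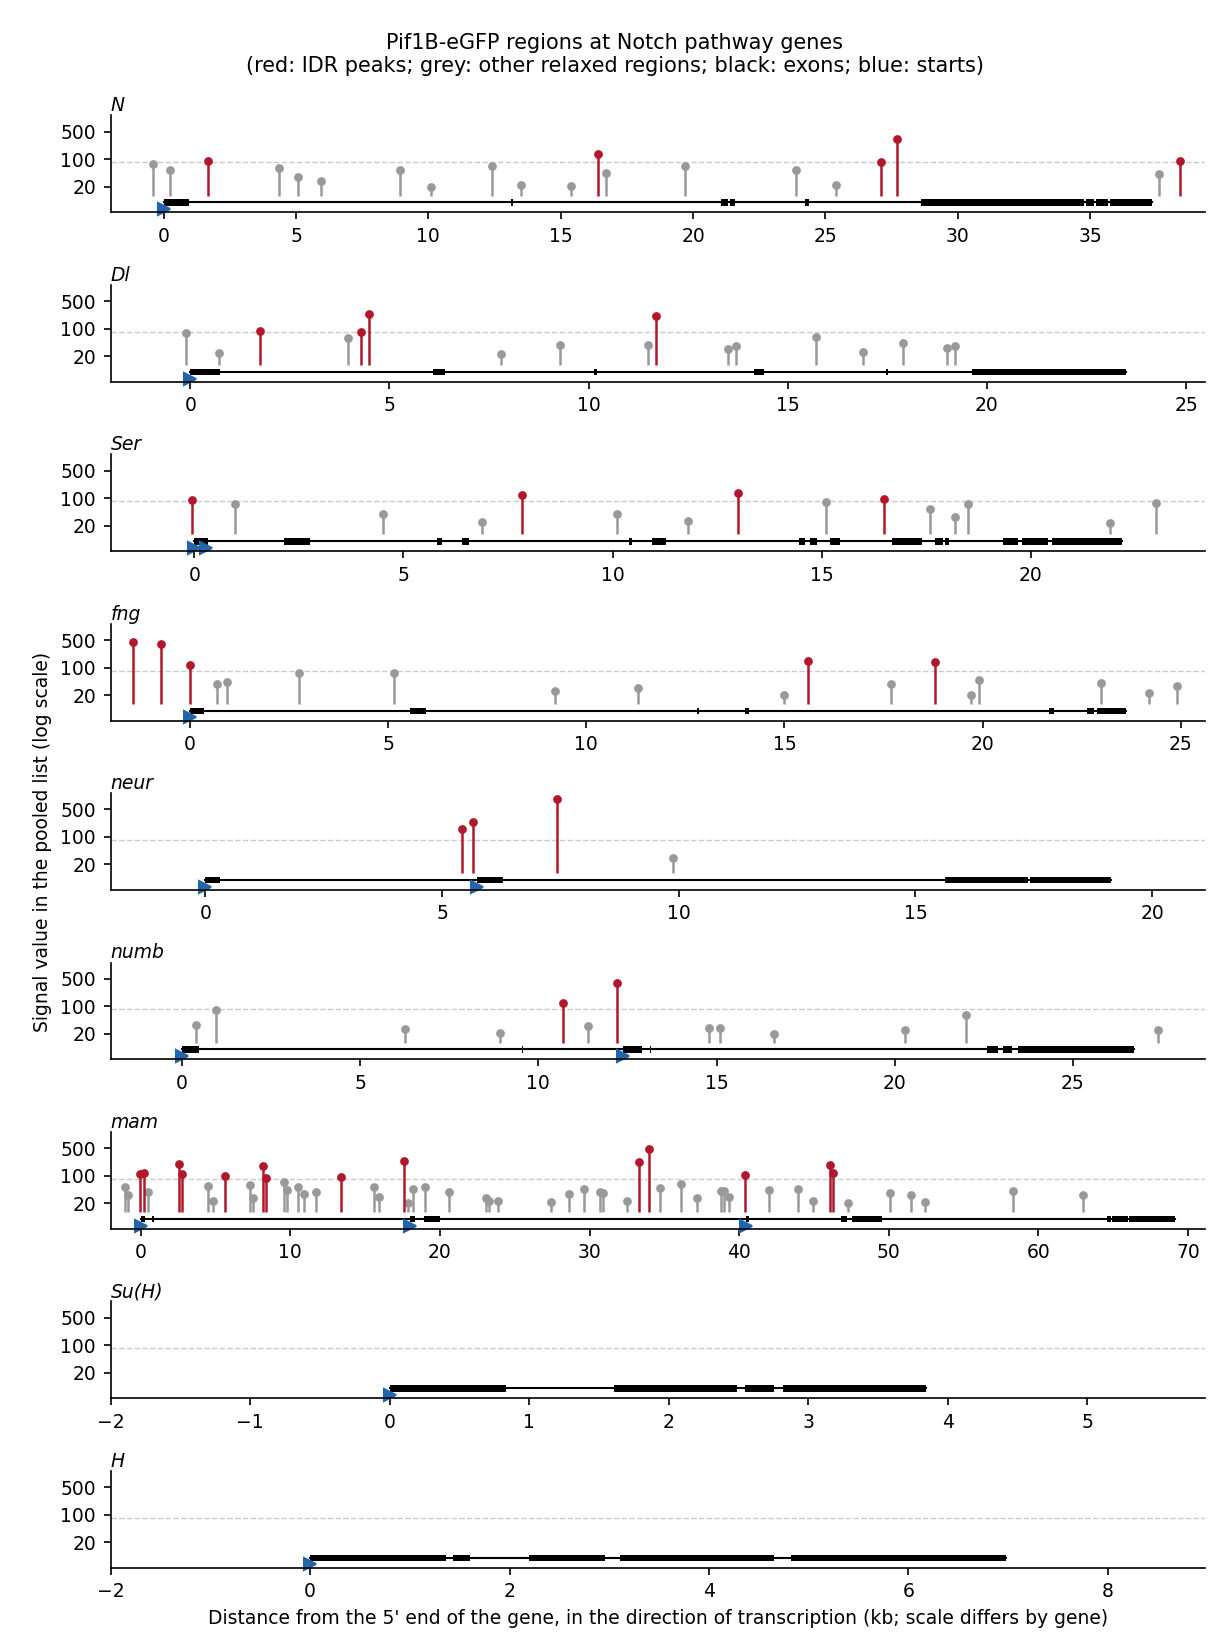
Signal value in the pooled list (log scale) of every region at the 9 genes, plotted by distance of its summit from the 5' end of the gene in kb, in the direction of transcription. Red stems are IDR peaks and grey stems other relaxed regions, black bars are exons, blue triangles are starts and the dashed line is the lowest signal of the IDR list, 83.2. The strongest stem, 910, stands in the first intron of neur, and the panels of Su(H) and H are empty.

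The receptor gene N (FBgn0004647, chrX:3134870-3172221 in dm6, plus strand, 37.4 kb) carried its strong binding far from its start. The strongest peak (chrX:3162385-3162667) had a signal value of 330 and lay in intron 5 of 8, 27.7 kb downstream of the start. It ranked 879, 531 and 746 in replicates 1, 2 and 3 (mean 719 ± 176, SD, n = 3), so it was well inside the 6410 strongest regions of each. A weaker peak in the same intron had 84.0, a peak in intron 2 had 140 and a peak in intron 1 had 90.5. The remaining peak, at 89.2, lay beyond the 3' end and 144 bp from the start of CG18508. That start was also the nearest protein-coding one to the peaks of 330 and 84.0, at 10578 and 11177 bp. At the start of N itself, the relaxed regions 398 bp upstream and 240 bp downstream had 75.7 and 53.6, below the IDR list. Of the 20 relaxed regions at N, the lists of replicates 1, 2 and 3 held 18, 14 and 20. Among the 6410 strongest regions of each replicate, N had 4, 2 and 4 (mean 3.33 ± 1.15). Replicate 2 was lowest in both counts and had the lowest share of its list on X, and the part of that share in these counts was not tested. On other chromosomes, replicate 2 also held the fewest relaxed regions at Dl (17, 10 and 14), Ser (14, 10 and 14) and mam (51, 47 and 48). Replicate 3 held the fewest at fng (15, 14 and 12) and numb (11, 11 and 7), and neur had 4 in each. Only 2 of the 5 peaks of N were among the strongest regions of all 3 replicates. Requiring support from 2 replicates alone left 2 peaks of N without replicate 1, 3 without replicate 2 and 2 without replicate 3. The strongest summit with 50 bp to each side (chrX:3162512-3162612, plus strand, RefSeq, Release 6 assembly) is shown because this intronic site led the receptor gene. Capitals mark a match to TATAAA, read on the other strand.
N intron 5 peak: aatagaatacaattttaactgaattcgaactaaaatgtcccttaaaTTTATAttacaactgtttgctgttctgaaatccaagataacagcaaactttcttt

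The ligand genes Dl and Ser both held 4 IDR summits, but at different strengths. At Dl (FBgn0000463, chr3R:19302731-19326217, minus strand), all 4 were intronic. The strongest (chr3R:19321515-19321944), at 238, lay in intron 1 of 5, 4.49 kb from the start, with ranks of 2739, 2021 and 648 (mean 1803 ± 1062). Replicate 3 placed it far higher than the other replicates did. The second (chr3R:19314418-19314525), at 216, lay in intron 3 and was steadier, with ranks of 1779, 1577 and 1506 (mean 1621 ± 142). Replicates 1 and 2 placed this second peak above the first, so the first led in the pooled signal but not in every replicate. A peak at 83.2, near the end of the IDR list at rank 6406, overlapped the strongest one, and both took the same region in each replicate. A peak 1.76 kb from the start, at 87.2, ranked 14686, 5180 and 5723, so replicate 1 did not hold it among its strongest regions. The start of Dl had a relaxed region at 75.6, 98 bp upstream.

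The sequences around 3 Dl summits are shown on the minus strand, the strand of the gene, because they held the strongest binding and the only match to the Su(H) site among the 37 summits. The windows are chr3R:19321680-19321780, chr3R:19314463-19314563 and chr3R:19321883-19321983 (RefSeq, Release 6 assembly). Capitals mark AAAAAA in the first. In the third they mark GAGAG in 2 places and, between these, the Su(H) site GTGAGAA. All were read on the other strand.
Dl intron 1 peak, signal 238: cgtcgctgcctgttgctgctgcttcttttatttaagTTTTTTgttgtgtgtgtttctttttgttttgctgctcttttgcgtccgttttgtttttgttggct
Dl intron 3 peak, signal 216: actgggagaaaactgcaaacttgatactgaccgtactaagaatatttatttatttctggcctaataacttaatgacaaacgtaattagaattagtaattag
Dl intron 1 peak, signal 83.2: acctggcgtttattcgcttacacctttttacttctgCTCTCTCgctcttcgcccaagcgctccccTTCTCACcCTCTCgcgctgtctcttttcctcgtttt

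Ser (FBgn0004197, chr3R:27172090-27194267, minus strand), which encodes the ligand Serrate, had the weakest leading peak of the 7 bound genes. That peak (chr3R:27181059-27181488) had 135 and lay in intron 6 of 14, with ranks of 5103, 2722 and 4035 (mean 3953 ± 1193). The others were at 121 in intron 4, at 92.4 in intron 9 and at 90.6 at the start, 53 bp upstream. The peak in intron 4 ranked 3223, 7896 and 3072 and the peak in intron 9 ranked 4974, 6397 and 9215, so each missed the 6410 strongest regions of 1 replicate. None of the 4 was among the 3205 strongest IDR peaks. In the relaxed list, 4 further regions at Ser had 70.6 to 77.4, just under the IDR list. Leaving out replicate 1 left 2 of the 4 peaks supported by both other replicates. The window at the strongest summit (chr3R:27181224-27181324, minus strand, RefSeq, Release 6 assembly) is shown for comparison with those of Dl, and it held none of the motifs searched.
Ser intron 6 peak: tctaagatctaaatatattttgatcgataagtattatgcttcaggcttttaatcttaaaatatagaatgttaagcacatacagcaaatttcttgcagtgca

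At fng (FBgn0011591, chr3L:20925891-20949512, minus strand), whose product Fringe adds a sugar to the receptor and shifts its response between the ligands, the strongest binding lay upstream of the gene. The peak of 436 (chr3L:20950894-20951156) was 1432 bp upstream of the start and 161 bp from the start of lncRNA:CR45243, and ranked 500, 264 and 398 (mean 387 ± 118). A second upstream peak, at 399, lay closer to the start and ranked 648, 370 and 503 (mean 507 ± 139). Replicate 2 placed both highest, and no replicate placed either below rank 648. A peak of 114 lay 2 bp from the start, with ranks of 2669, 8360 and 3669, and 2 peaks in intron 4 of 6 had 148 and 136. For these 2 intronic peaks the nearest protein-coding start was that of CG10589, 6057 and 2850 bp away. Just outside the 2 kb window stood 3 more IDR peaks. Those of 267 and 106 lay further upstream, 2188 and 2809 bp from the gene. That of 246 lay beyond the 3' end, 2514 bp from the gene. The count at fng therefore changed with the window, to 3 for the gene alone and 8 with 5 kb. The window of the strongest upstream summit (chr3L:20950894-20950994, minus strand, RefSeq, Release 6 assembly) is shown because it was the strongest outside the gene bodies of the 9, and it held none of the motifs searched.
fng upstream peak, signal 436: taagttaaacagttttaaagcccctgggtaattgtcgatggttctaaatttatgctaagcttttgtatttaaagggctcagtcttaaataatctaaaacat

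The strongest binding of all 9 genes was at neur (FBgn0002932, chr3R:9020348-9039471, minus strand), whose product Neuralized drives uptake of the ligands in the signal-sending cell. The leading peak (chr3R:9031856-9032191) had a signal value of 910 and was number 43 of the 29999 pooled regions. It ranked 67, 44 and 45 in replicates 1, 2 and 3 (mean 52.0 ± 13.0), and in each replicate it stood above the leading peak of every other gene of the 9. It lay in intron 1 of 2, 1691 bp from the internal start that stands 5.74 kb into the gene. Next to that internal start were overlapping peaks of 239 and 162, 83 and 314 bp away, which took the same region in each replicate (ranks 1109, 1346 and 1368). The 5' start of neur had no region. All 3 peaks were supported by every replicate, and only 1 further relaxed region, at 29.2, lay in the whole window. Thus 75.0% of the relaxed regions at neur were in the IDR list, against 21.4% of all relaxed regions. The windows chr3R:9031990-9032090 and chr3R:9033764-9033864 (minus strand, RefSeq, Release 6 assembly) show the leading peak beside the peak at the internal start. Capitals mark runs of AAAAAA and, in the second, also GAGAG, read on the other strand, directly followed by CAGCTG.
neur intron 1 peak: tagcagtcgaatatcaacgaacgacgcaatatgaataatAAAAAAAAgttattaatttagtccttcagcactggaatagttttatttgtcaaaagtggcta
neur internal start peak: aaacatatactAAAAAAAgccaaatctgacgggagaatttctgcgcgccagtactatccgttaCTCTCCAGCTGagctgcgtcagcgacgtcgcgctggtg

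The inhibitor gene numb (FBgn0002973, chr2L:9437469-9464184, plus strand), whose product is handed to 1 of the daughters of a dividing precursor cell, had its strongest peak at an internal start. The peak of 391 (chr2L:9449547-9449760) lay 143 bp from that start and 12.2 kb from the 5' end, with ranks of 540, 378 and 498 (mean 472 ± 84.1). The other peak, at 122, lay 1681 bp from the same start and ranked 5534, 4528 and 4409. Both were supported by all 3 replicates. At the 5' start, numb had only a relaxed region at 34.1, which replicate 3 lacked, and the region of 79.7 that lay 944 bp inside the gene was the highest at any of the 9 genes to fall outside the IDR list. The density at numb, 0.0651 per kb, was the lowest of the 7 bound genes, and 36.6% of the longest 10% reached it. The window chr2L:9449637-9449737 (plus strand, RefSeq, Release 6 assembly) is that of the strongest numb summit, beside that start, and it held none of the motifs searched.
numb internal start peak: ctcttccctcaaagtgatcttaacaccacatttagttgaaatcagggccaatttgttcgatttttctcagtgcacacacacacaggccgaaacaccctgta

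By signal value the order of the leading peaks was neur (910), mam (474), fng (436), numb (391), N (330), Dl (238) and Ser (135). The replicate ranks of neur stood apart from those of mam, and from mam to Ser the ranks of each gene overlapped those of the next. The replicate ranks of a given IDR peak were as spread at these genes as elsewhere, with a median ratio of highest to lowest rank of 1.82 over the 37 peaks and 1.87 over the 6312 IDR peaks with a region in every replicate.

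**Figure D3:**
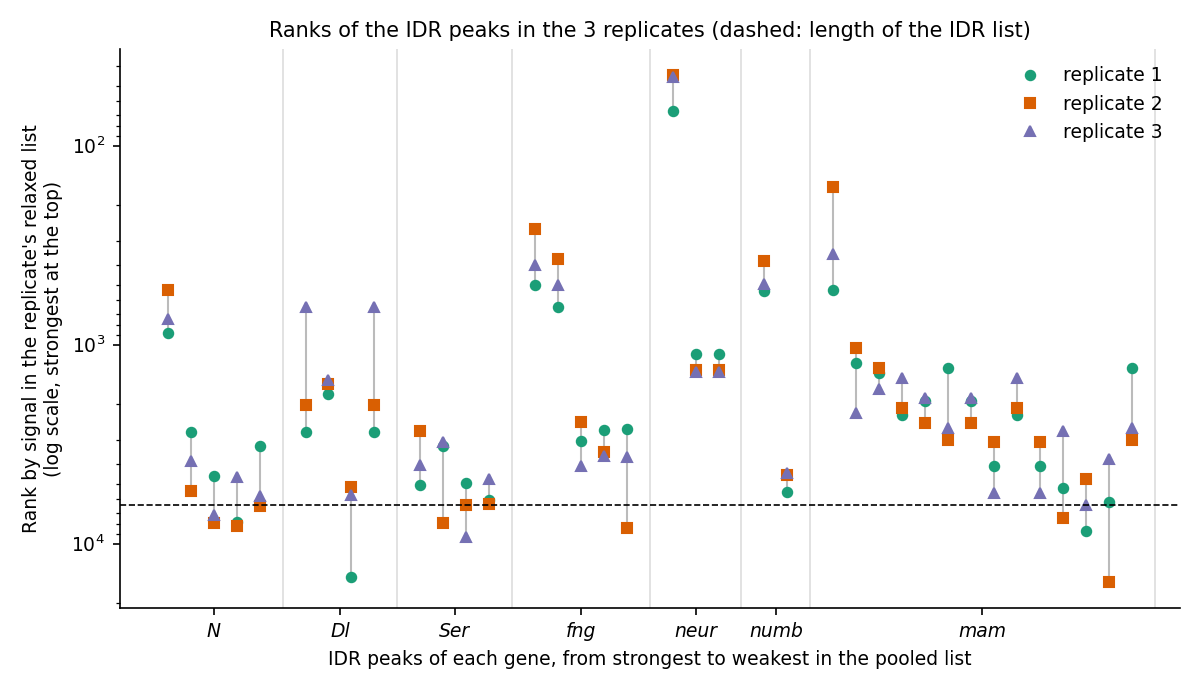
Rank of each IDR peak in the relaxed list of each of the 3 replicates (log scale, strongest at the top), with the peaks of a gene in order of pooled signal from left to right. A vertical line joins the 3 replicates of a peak and the dashed line is rank 6410. The ranks of the leading neur peak, 67, 44 and 45, stand above all others.

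Among the nuclear components, binding was dense at mam (FBgn0002643, chromosome 2R, 13991203 to 14060356, plus strand, 69.2 kb), while Su(H) and H had no region in the IDR or pooled list. The coactivator gene mam held 14 IDR summits, which merged into 10 separate intervals because several peaks overlapped. In the longest 10%, 1.51% of genes had as many summits and 7.60% as high a density. Its strongest peak (2R, 14024949 to 14025317), at 474, lay in an intron 6.48 kb from the nearest of its 3 starts, with ranks of 532, 162 and 351 (mean 348 ± 185). The start of another gene, CG18371, was closer to that peak, at 3433 bp, and also closer to the peak of 218, at 4152 bp. Each of the 3 starts of mam had binding within 500 bp. The 5' start had overlapping peaks of 109 and 115, the second start a peak of 240 at 360 bp and the third a peak of 104 at 18 bp. The other 9 peaks were intronic, between 89.2 and 218. The strongest 6410 regions of replicates 1, 2 and 3 included 12, 11 and 15 at mam (mean 12.7 ± 2.08), and 11 of the 14 peaks were supported by all 3. The sequences of mam are not shown here.

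Su(H) (FBgn0004837, chromosome 2L, 15039488 to 15043334, plus strand, 3.85 kb) and H (FBgn0001169, chromosome 3R, 20621938 to 20628915, plus strand, 6.98 kb) had no IDR peak and no pooled relaxed region. Among genes of similar length, 50.6% in the length class of Su(H) and 79.0% in that of H had at least 1 pooled relaxed summit, so an empty window was common for a gene like Su(H) and less so for a gene like H. Replicate 2 listed 1 region at each. That at Su(H) had a signal value of 12.7, ranked 16382 and lay 97 bp from the start. That at H had 8.57, ranked 26168 and lay 74 bp from the start. Replicates 1 and 3 listed none at either gene. The nearest IDR peaks were 13.5 kb from Su(H), at 339, with ck as the nearest start, and 26.9 kb from H, at 87.5, with bon as the nearest start. The lists do not give the signal of sites that were not called, so binding weaker than the lists hold could not be measured.

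The density of each replicate's 6410 strongest regions placed fng first, where the IDR list had mam. It was 0.205 ± 0.0209 per kb at fng, 0.178 ± 0.0441 at Ser, 0.173 ± 0.0285 at mam, 0.130 ± 0 at neur, 0.121 ± 0.0210 at Dl, 0.0806 ± 0.0279 at N and 0.0651 ± 0 at numb (mean ± SD, n = 3). An SD of 0 reflects equal counts in the 3 replicates, 3 at neur and 2 at numb. Neighbours in this order overlapped in their replicate values, except mam with neur and Dl with N. Ser was high in replicate 1, with 6 regions against 4 in each of the others.

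**Figure D4:**
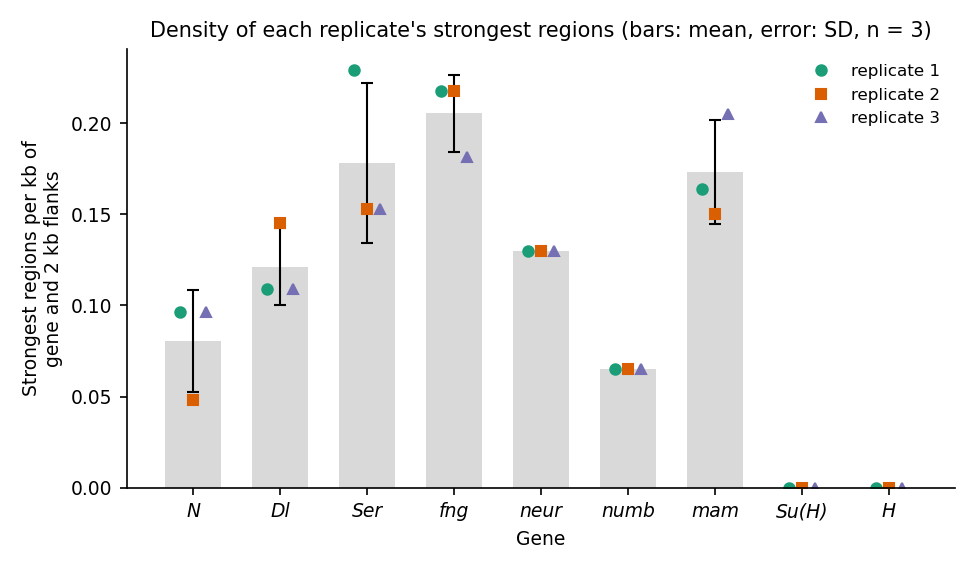
Number of regions among the 6410 strongest of each replicate per kb of gene and 2 kb flanks, for the 9 genes. Bars are means over the 3 replicates, error bars the SD and points the replicates, with fng highest at 0.205 ± 0.0209 and Su(H) and H at 0.

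Most of these peaks were found in every replicate, as were most IDR peaks. All 37 had a region in each of the 3 relaxed lists, against 6312 of all 6410 IDR peaks. Support from the 6410 strongest regions of all 3 replicates was found for 27 (73.0%), against 65.6% of all IDR peaks, while 8 had it from 2 replicates and 2 from 1. The IDR list was built from these same libraries, so support is in part fixed by how the list was made. The peaks did not stand out in strength, with a median signal value of 135 against 137 over the whole IDR list. There were 5 in the strongest 10% of the list, 6 in the weakest 10% and 20 below the 3205 strongest. Of the 106 relaxed regions at these genes outside the IDR list, 53 had a region in all 3 replicates. The share over all relaxed regions outside the IDR list is not given here, so this count has no background. Overlapping neighbours shared a replicate region for 12 of the 37 peaks, so those do not count as separate evidence, and merging overlapping intervals left 31.

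Short motifs were looked for on either strand in the 50 bp to each side of the 37 summits. The Su(H) site, searched as GTGGGAA or as GTGAGAA, was present in 1 window (2.70%), against 1.87% of the windows of all IDR peaks and 2.07% of the 22032 relaxed regions that overlapped no IDR peak. Runs of AAAAAA were in 16 windows (43.2%), against 30.1% of IDR and 26.3% of relaxed windows. The letters GAGAG, part of the sequence bound by GAGA factor, were in 8 (21.6%), against 16.5% and 13.1%. The letters TATAAA were in 5 (13.5%), against 20.6% and 18.0%, and CAGCTG, an E-box, in 1 (2.70%), against 3.65% and 3.97%. No window held CACGTG (0.640% of IDR and 0.976% of relaxed windows), the longer word TATCGATA (0.468% and 0.349%) or the word CAGGTA (1.76% and 1.97%). With 37 windows, 1 match is 2.70%, so the rarer motifs could not be compared with the background. The median GC content of the 37 windows was 32.7%, against 33.7% for all IDR and 37.6% for relaxed windows, with a lowest gene median of 27.2% at Ser and a highest of 42.6% at numb. Its part in the share of AAAAAA was not tested.

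Beyond these 9 genes, 49 other genes of the pathway were listed and 48 matched the annotation. Of the 48, 26 had an IDR summit (54.2%), with 90 distinct summits, of which the summit near the start of ebi was shared with AP-2alpha. In the longest 10% of genes the count was 12 of 16 (75.0%), against 64.2% of all genes of that length. Among shorter genes it was 14 of 32 (43.8%), against 26.0% of all shorter genes. The roles differed in gene length, so each count is set beside the share of all protein-coding genes with an IDR summit in the length classes of its members, averaged over the members. IDR summits were found at 5 of 7 downstream genes (against 55.1%), whose median length was 20.4 kb, and at 6 of 10 genes of asymmetric division (against 48.8%). They were found at 4 of 7 genes of ligand and receptor endocytosis (against 48.5%), 6 of 11 nuclear cofactors (against 46.9%) and 3 of 6 genes of receptor cleavage (against 34.9%). The Bearded family, short genes that encode inhibitors of Neuralized, had 2 of 4 (against 15.3%). The genes of receptor glycosylation and folding, with a median length of 1.62 kb, had 0 of 3, against 21.7%. With 3 to 11 genes a role, these shares rest on few genes, and differences between roles were not tested.

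The strongest peaks among these genes were at Kul, a kuz-related metalloprotease gene (691), edl, which encodes an antagonist of ETS factors (666), spen (566), bib (481) and kuz (467), the metalloprotease that makes the first cut of the receptor. They were followed by pnt, an ETS activator (457), gro, the corepressor that Hairless recruits (454), aph-1, a subunit of the protease that makes the final cut (375), skd, a Mediator subunit (366) and Smr, a corepressor (337). The Kul peak lay downstream of Kul, and its nearest protein-coding start was that of CIA30, while the aph-1 peak was nearest to the start of Snx21. The Kul peak ranked 118, 117 and 107, the edl peak 121, 122 and 139 and the gro peak 467, 700 and 171. Within the nuclear group, spen, skd and Smr held 8 IDR summits each. Among the downstream genes, the ETS gene pnt held 13. No IDR summit was found at Psn, nct, pen-2, O-fut1, rumi, shams, Su(dx), Nedd4, krz, sno, kto, CycC, Cdk8, insv, pon, spdo, l(2)gl, mira, Brd, BobA, vg or sca.

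**Figure D5:**
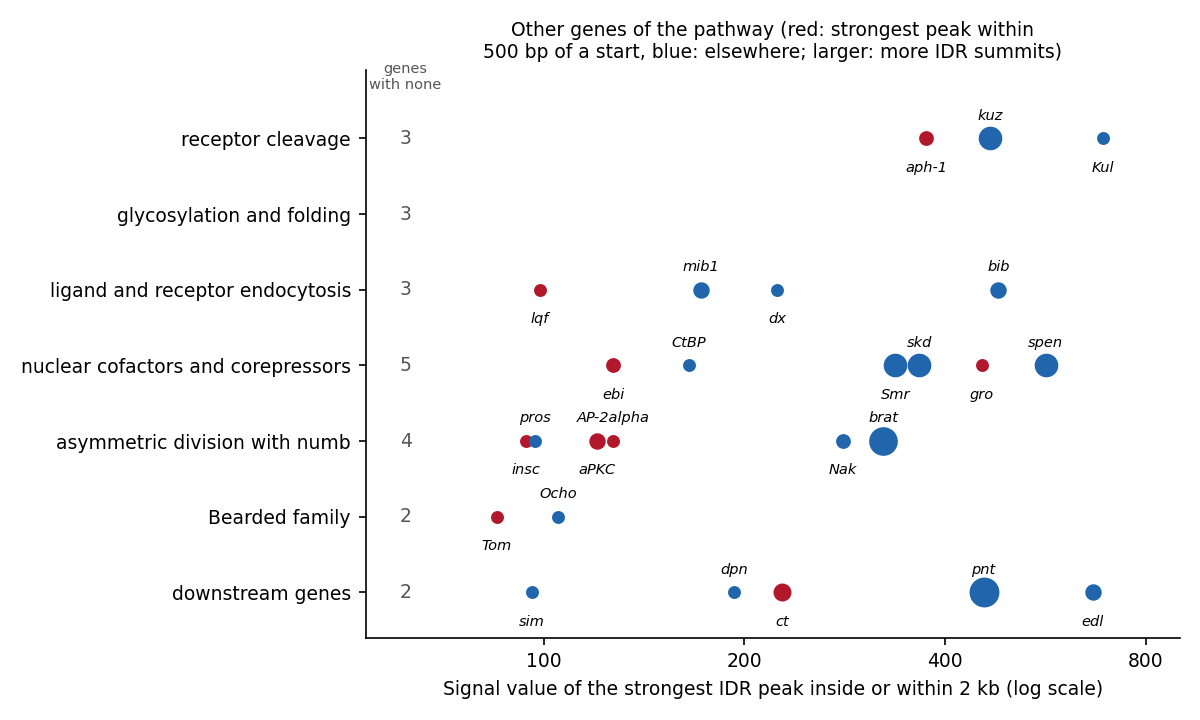
Signal value of the strongest IDR peak (log scale) at each of the 26 other pathway genes that had one, by role. Red points are peaks within 500 bp of a start of the gene and blue points other peaks, larger points have more IDR summits, and the grey number is the count of genes with none. The strongest is Kul at 691, and the glycosylation and folding group has no point.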

How the data were processed

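Regions were taken from the deposited dm6 lists, in which the signal value of each region is as the authors' peak caller wrote it, on a scale that is not stated. Per the deposited text files, relaxed lists were called for each replicate and for the pooled replicates, and the IDR list was derived from them. Which aligner, peak caller and threshold were used is not given in the sources used here. Control libraries and the dm3 lists were not analysed here, and sequencing depth is unknown. The sequence of 1 further site is not reported here.

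From these lists, summits were assigned to Ensembl release 115 genes, with a start taken as any annotated transcript start and the class start (within 500 bp) given first, then exon, intron, upstream and downstream. Per kb values use the gene with its 2 kb flanks. A replicate supported a peak when 1 of its 6410 strongest regions overlapped it by at least 1 bp, and a peak's rank was that of the strongest overlapping region. Protein-coding genes were divided by length into 10 equal classes. Python 3.11.15, numpy 2.4.6, pandas 2.3.3 and matplotlib 3.10.9 were used, and assignment was checked on simulated data.

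The members and lists were chosen with earlier results of these data known. All 9 members are named, with the 10 other pathway genes of strongest signal and every listed gene without an IDR summit. Genes near a member's peak are named where its position requires it. Alternatives were flanks of 0, 1 and 5 kb, start distances of 250 and 1000 bp, overlap in place of summits, the 3205 strongest IDR peaks, peaks supported by all replicates, each replicate left out, nearest starts, and replicate summits within 100 bp.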

Additional observations from a re-analysis of the deposited data

How the results depend on the processing

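Of 45 recomputed counts and shares, 40 stayed within 1.5 times the reported value. Among the 3205 strongest IDR peaks, the 9 genes held 17 summits, 4 summits lay at starts and 17 other pathway genes had one. Without flanks, 13.5% of protein-coding genes and 17 other pathway genes had an IDR summit. Leaving out a replicate kept the IDR peaks that both others supported, so counts could only fall. The IDR list itself still rested on all 3 replicates. With each replicate left out in turn, the 9 genes held 28 to 32 summits at 7 genes in every case, and 7 to 9 lay at starts. An IDR summit was then left at 18 to 20 other pathway genes and at 23.8% to 24.2% of protein-coding genes. Of 90 recomputed counts of single genes, 74 stayed within 1.5 times. The mean ranks of the leading peaks stayed within 1 SD in all 28 recomputations, but for replicates left out this was fixed in advance. Leaving out 1 of 3 values cannot move their mean by as much as their SD. Matching replicate summits within 100 bp gave the same mean ranks. No paired analysis was possible because there was 1 group. Of the 37 peaks, 20 lay among the weaker IDR peaks, so thresholds on signal bear on most counts. Depth is unknown, which limits what an empty window means. The interval was 430 bp wide at 28 of the 37 peaks, and how precisely their summits are placed was not tested.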
